A study of Mus musculus with 18 samples.

Results

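Dendritic cells given bacterial lipopolysaccharide (LPS) alone were compared with dendritic cells given the cytokines IL10 and TGF-β alone, in 6 libraries chosen by their titles from 18 in the series. The LPS group holds 3 wild-type libraries and the IL10 + TGF-β group holds 3 wild-type libraries. Both are bone-marrow-derived dendritic cells (BMDC) of C57BL/6 mice, grown in GM-CSF, treated for 8 hours and sorted as live cells with high CD11c, an integrin of dendritic cells. Both groups are wild type. Doses are not given in the labels. A further 3 wild-type libraries with LPS + IL10 + TGF-β and 3 in medium are used for context, and 6 libraries of Bat3 fl/fl CD11c Cre cells, in LPS or medium, entered the model fit only. The labels mention 5 biological replicates in one place and triplicates in another, and name no animal or culture behind a library, so the p-values measure the spread among these libraries, which may be technical.

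LPS is a cell wall component of Gram-negative bacteria that is sensed by the receptor TLR4, whose adaptors MyD88 and TRIF activate NF-κB and interferon regulatory factors. Dendritic cells that sense it mature: they display peptides with costimulatory ligands, secrete IL-12 and type I interferon, and gain the chemokine receptor CCR7, which guides them to lymph nodes. IL10 signals through STAT3 and TGF-β through SMAD proteins, and both are used to make tolerogenic dendritic cells, which stimulate T cells poorly.

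RNA was counted for 23420 genes per library, with 8940446 to 9407500 counts in the LPS libraries and 9948715 to 11625458 in the IL10 + TGF-β libraries. Levels are given as CPM, the usual scaling of counts to library size. Dendritic genes were present in all 6 libraries, with Itgax, which encodes CD11c, at 622 CPM in LPS and 381 CPM in IL10 + TGF-β. The summed level of 14 granulocyte genes ran from 1153 to 2786 CPM in LPS and from 6433 to 9130 CPM in IL10 + TGF-β. That of the 9 mast cell and basophil genes tested ran from 50.3 to 57.5 CPM in LPS and from 38.7 to 66.1 CPM in IL10 + TGF-β. Singly, 8 of those 9 were lower in LPS and 1 was higher. Of 14 lymphocyte genes, 9 had under 3 counts in every one of the 6 libraries and Cd3g had 0 in all of them. In bulk RNA, fewer cells of a type and less RNA per cell cannot be told apart.

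Among the IL10 + TGF-β libraries, replicate 1 stood apart. In 23 genes that had at least 100 CPM in LPS and at least 20 times the level of replicates 2 and 3 of IL10 + TGF-β, replicate 1 of IL10 + TGF-β lay above the mean of the other 2 in 23 of 23 genes, by 4.67% to 11.2% of the LPS level (median 6.66%). Choosing genes low in replicates 2 and 3 favours an excess in replicate 1. The same rule turned on replicate 2 gave an excess in 0 of 13 genes (median -3.17%). Turned on replicate 3, it gave an excess in 0 of 12 genes (median -3.77%). In both cases the mean of the other 2 libraries includes replicate 1. The negative values therefore reflect its high levels and are not an independent check. Il12b had 22.7, 0.169 and 0.164 CPM in the 3 IL10 + TGF-β libraries, and Ccl5 had 501, 6.6 and 3.70 CPM. The origin of these transcripts in replicate 1 was not tested. Fold changes of genes that are high in LPS and near 0 in the other 2 cytokine libraries are therefore given with and without this library.

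**Figure D1:**
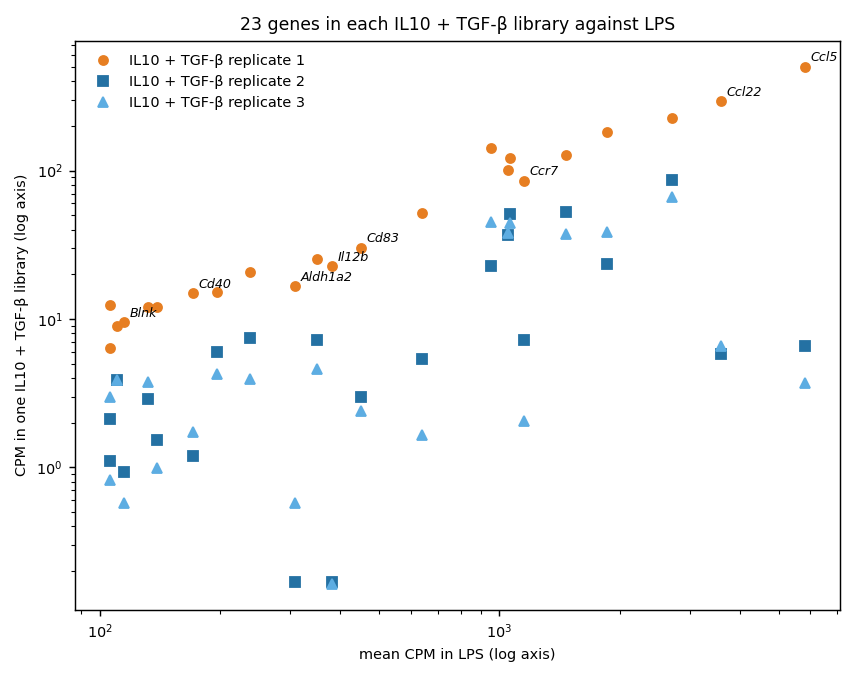
Level of each of the 23 genes in one IL10 + TGF-β library (vertical, CPM, log axis) against its mean in the 3 LPS libraries (horizontal, CPM, log axis). Replicate 1 of IL10 + TGF-β, in orange circles, lies above replicates 2 and 3 in all 23 genes, by 4.67% to 11.2% of the LPS level. The genes were chosen as low in replicates 2 and 3.

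The treatments separated most of the measured transcriptome. Of 11876 genes with enough counts to be tested, 6932 (58.4%) passed an adjusted p of 0.05 with edgeR's quasi-likelihood test and Benjamini-Hochberg adjustment. In LPS, 3526 of them (29.7% of genes tested) were higher and 3406 (28.7%) were lower than in IL10 + TGF-β. At least 2-fold differences numbered 3001 (25.3%), with 1484 higher and 1517 lower, and 247 genes were at least 8-fold higher and 178 at least 8-fold lower. The median log2 fold change of all genes tested was 0.01, and 7628 genes (64.2%) had groups that did not overlap. Without replicate 1 of IL10 + TGF-β, 6547 genes passed, 3284 higher and 3263 lower.

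**Figure D2:**
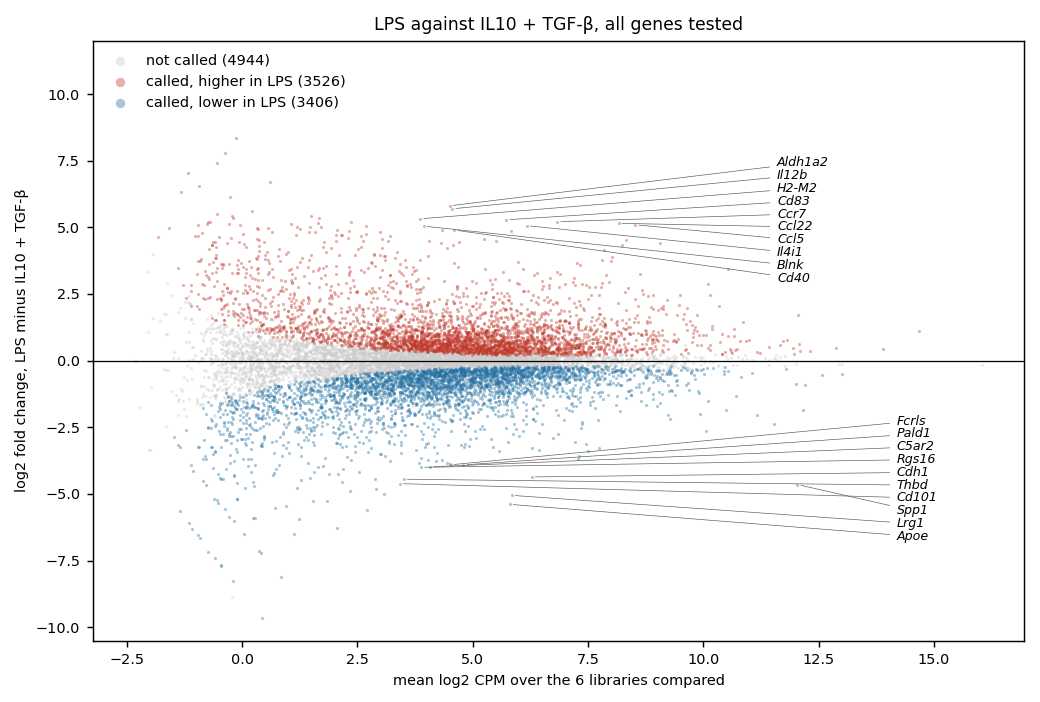
Log2 fold change of LPS over IL10 + TGF-β (vertical) against the mean log2 CPM of the 6 libraries (horizontal) for the 11876 genes tested. Red points passed the test and were higher in LPS, blue points passed and were lower, and the labelled genes are the 10 largest rises and 10 largest falls whose mean log2 CPM was 3 or more.

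The 10 largest rises were a cytokine subunit, 2 chemokines, a chemokine receptor, 2 surface molecules of T-cell stimulation and enzymes of retinoic acid and amino acid metabolism, with an adaptor and a non-classical MHC gene. All but the MHC gene lost the call when only the 6 libraries compared were fitted with a replicate block (edgeR, adjusted p = 0.051 to 0.16). Il12b, which encodes the p40 subunit of IL-12 and IL-23, had 419.9, 384 and 339 CPM in LPS, against 22.7, 0.169 and 0.164 CPM in IL10 + TGF-β. All LPS libraries were high, and the cytokine libraries were near 0 but for replicate 1. The log2 fold change was 5.70 ± 0.92 (SE, adjusted p = 0.00015), and 11.05 ± 0.37 without replicate 1. The latter rests on 4 counts over replicates 2 and 3 of IL10 + TGF-β, so its size is less certain than its SE implies. Ccr7, the receptor that leads dendritic cells toward lymph nodes, had 1256, 1072 and 1127 CPM in LPS and 85.3, 7.19 and 2.06 CPM in IL10 + TGF-β. The groups did not overlap, and the log2 fold change was 5.21 ± 1.17 (SE, adjusted p = 0.002), or 7.96 ± 1.17 without replicate 1. In medium Ccr7 had 212, 216 and 17.2 CPM, with replicate 3 low, all under the LPS libraries. On the mouse mm10 assembly Il12b lies on chromosome 11 at 44400063 to 44414677 and Ccr7 on chromosome 11 at 99144199 to 99155077.

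Ccl22, a chemokine that draws CCR4-bearing T cells, had 3697, 3522 and 3552 CPM in LPS and 292, 5.84 and 6.58 CPM in IL10 + TGF-β, a log2 fold change of 5.15 ± 1.25 (SE, adjusted p = 0.0034) with replicate 1 and 9.17 ± 0.79 without it. Ccl5, which draws T cells and monocytes, had 4966, 7203 and 5296 CPM in LPS and 501, 6.6 and 3.70 CPM in IL10 + TGF-β, with a log2 fold change of 5.10 ± 1.45 (SE, adjusted p = 0.0088) and of 10.14 ± 0.99 without replicate 1. In both, every LPS library was above every cytokine library, and the spread among cytokine libraries exceeded an order of magnitude. Both lost the call when only the 6 libraries compared were fitted (adjusted p = 0.089 for Ccl22 and 0.13 for Ccl5), a fit that estimates the spread from these libraries alone. Cd40, the receptor for T-cell CD40 ligand, had 183, 179.9 and 150.0 CPM in LPS and 14.9, 1.18 and 1.73 CPM in IL10 + TGF-β. It was 29.9-fold higher in LPS, with a log2 fold change of 4.90 ± 0.64 (SE, adjusted p = 2.3e-05) and of 6.86 ± 0.43 without replicate 1. Cd83, a surface marker of mature dendritic cells, had 510.3, 406 and 434 CPM in LPS and 30.3, 2.96 and 2.38 CPM in IL10 + TGF-β. Its log2 fold change was 5.28 ± 0.91 (SE, adjusted p = 0.00026), and 7.39 ± 0.90 without replicate 1.

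Aldh1a2 headed the ranking. It encodes the enzyme that makes retinoic acid from retinal and is known in dendritic cells that induce regulatory T cells. It had 233, 389.7 and 302 CPM in LPS, against 16.6, 0.169 and 0.576 CPM in IL10 + TGF-β and 53.5, 58.0 and 13.6 CPM in medium. Every LPS library was above every medium library, and replicates 2 and 3 of IL10 + TGF-β were below all of them. The log2 fold change between LPS and IL10 + TGF-β was 5.81 ± 0.93 (SE, adjusted p = 0.00014). It was 9.63 ± 0.90 without replicate 1, on 9 counts over replicates 2 and 3. Il4i1, a secreted amino acid oxidase that limits T-cell growth, had 631, 667 and 622 CPM in LPS and 51.5, 5.41 and 1.64 CPM in IL10 + TGF-β, with a log2 fold change of 5.06 ± 1.01 (SE, adjusted p = 0.00082), or 7.50 ± 0.97 without replicate 1. Blnk, an adaptor best known in B-cell receptor signalling, had 107, 127 and 112 CPM in LPS and 9.51, 0.930 and 0.576 CPM in IL10 + TGF-β, with 5.05 ± 0.56 (SE, adjusted p = 5.1e-06), or 7.24 ± 0.29 without replicate 1. H2-M2, a non-classical MHC class I gene whose counts are uncertain because related genes share sequence with it, had 77.7, 151 and 89.4 CPM in LPS and 6.40, 1.10 and 0.822 CPM in IL10 + TGF-β. Its log2 fold change was 5.32 ± 0.59 (SE, adjusted p = 4.9e-06), and 6.77 ± 0.60 without replicate 1. Without that library 9 of the 10 rises stayed in the ranking, and Il15, a cytokine for natural killer and memory T cells, took the place of H2-M2 at 6.94 ± 0.29.

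The 10 largest falls were Apoe, Lrg1, Spp1, Cd101, Thbd, Cdh1, Rgs16, C5ar2, Pald1 and Fcrls, all high with the cytokines. Apoe, the apolipoprotein of cholesterol export from phagocytes, had 8.28, 12.5 and 5.63 CPM in LPS, against 414, 410.4 and 280.1 CPM in IL10 + TGF-β and 8.83, 6.00 and 9.17 CPM in medium. LPS and medium libraries shared one low range, and every cytokine library was far above it. Apoe was 41.9-fold lower in LPS than in IL10 + TGF-β, a log2 fold change of -5.39 ± 0.36 (SE, adjusted p = 1.7e-08). Spp1, which encodes the secreted matrix protein osteopontin, had 651, 1029 and 882 CPM in LPS and 19706, 26182 and 18343 CPM in IL10 + TGF-β, with -4.65 ± 0.29 (SE, adjusted p = 2e-09). Its TPM, a level per transcript length, averaged 966 in LPS and 26314 in IL10 + TGF-β. Lrg1, a secreted glycoprotein that modulates TGF-β signalling, had 9.06, 5.25 and 16.9 CPM in LPS and 337, 353 and 351 CPM in IL10 + TGF-β, a log2 fold change of -5.05 ± 0.43 (SE, adjusted p = 3e-07). Leaving out replicate 1 of IL10 + TGF-β moved none of these 3 by over 1.5 times. On mm10, Apoe lies on chromosome 7 at 19696244 to 19701310, Spp1 on chromosome 5 at 104435111 to 104441053 and Lrg1 on chromosome 17 at 56119678 to 56121946.

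Cdh1 encodes E-cadherin, which holds immature dendritic cells to epithelial cells. It had 22.5, 11.9 and 17.5 CPM in LPS, 349, 350.5 and 372 CPM in IL10 + TGF-β and 169.7, 140.5 and 138 CPM in medium, so medium lay between the groups. The log2 fold change was -4.36 ± 0.19 (SE, adjusted p = 4.9e-12). Thbd, the thrombomodulin gene, an anticoagulant receptor, had 3.36, 1.17 and 2.76 CPM in LPS and 48.9, 67.0 and 44.6 CPM in IL10 + TGF-β, with -4.45 ± 0.26 (SE, adjusted p = 3.2e-11). Cd101, an immunoglobulin-family surface protein that restrains T-cell activation, had 2.69, 0.933 and 2.87 CPM in LPS and 52.0, 43.7 and 65.0 CPM in IL10 + TGF-β, with -4.61 ± 0.30 (SE, adjusted p = 2.3e-10). In all 3 the LPS libraries were low and the cytokine libraries high, as the ranking required. Rgs16, a regulator of G protein signalling, was at 3.64 ± 0.637 CPM in LPS and 58.6 ± 18.1 CPM in IL10 + TGF-β (SD, n = 3), with -4.00 ± 0.39 (SE, adjusted p = 2.6e-07). C5ar2, a second receptor for complement C5a, was at 4.34 ± 2.31 CPM in LPS and 69.0 ± 4.51 CPM in IL10 + TGF-β, with -3.98 ± 0.30 (SE, adjusted p = 7.2e-09).

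Pald1, a phosphatase-related gene, was at 7.23 ± 2.73 CPM in LPS, 109 ± 13.3 CPM in IL10 + TGF-β and 68.7 ± 10.4 CPM in medium, and Fcrls, an Fc receptor-like gene, was at 6.22 ± 3.62 CPM in LPS, 93.1 ± 9.52 CPM in IL10 + TGF-β and 83.4 ± 21.3 CPM in medium. Their log2 fold changes between LPS and IL10 + TGF-β were -3.91 ± 0.19 (SE, adjusted p = 8.2e-12) for Pald1 and -3.91 ± 0.31 (SE, adjusted p = 3e-08) for Fcrls. Medium values of both were far nearer to the cytokine values. Without replicate 1 of IL10 + TGF-β, 8 of the 10 falls stayed in the ranking, and Myc and Id1 took the places of Cd101 and Fcrls. Cd101 kept a log2 fold change of -4.64 there, beyond those of Myc (-3.92) and Id1 (-3.87). The ranking also requires a mean log2 CPM of 3 or more in the libraries kept.

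**Figure D3:**
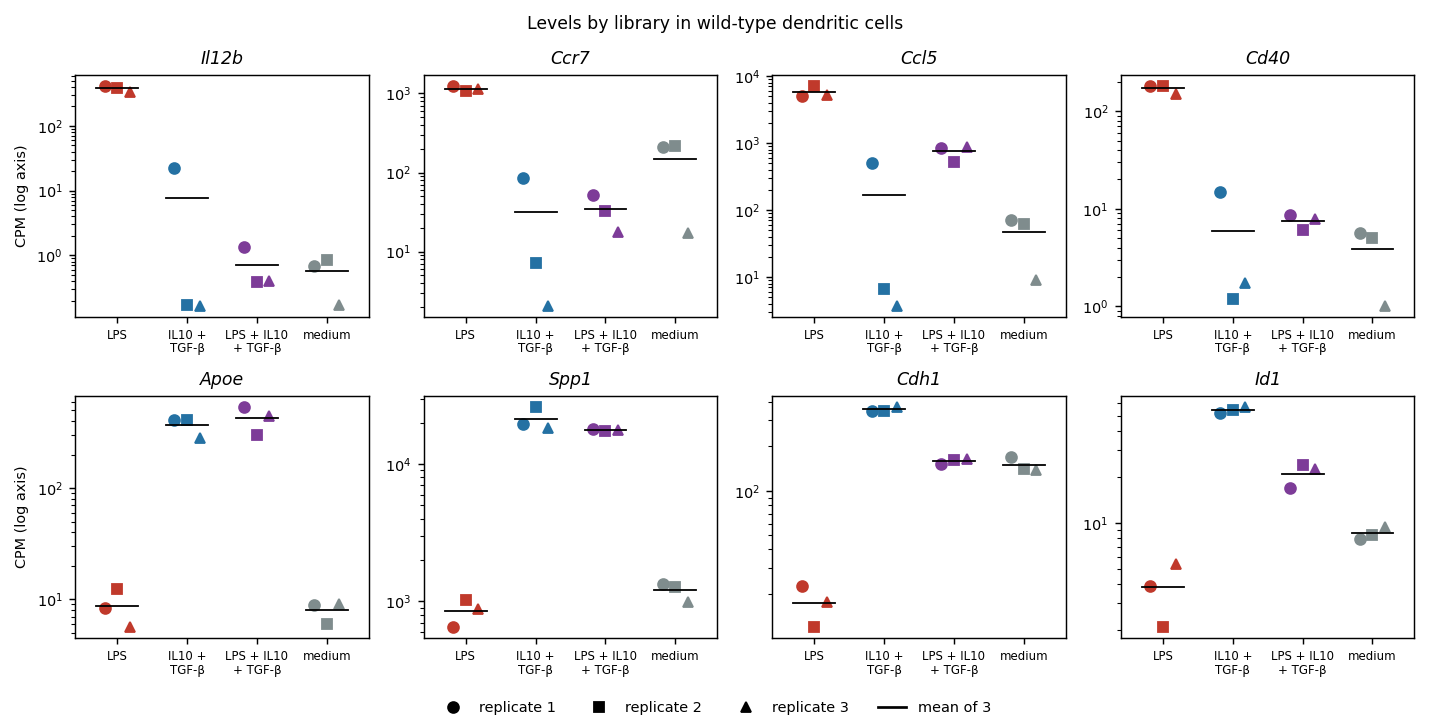
CPM (vertical, log axis) of 4 genes high in LPS (top) and 4 genes high with IL10 + TGF-β (bottom) in each wild-type library. Circles, squares and triangles are replicates 1, 2 and 3, and bars are means of 3. Replicate 1 of IL10 + TGF-β lies above replicates 2 and 3 in Il12b, Ccr7, Ccl5 and Cd40 and within their range or close to it in the lower row.

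The medium libraries place each gene beside untreated cells, and both differences from medium share the same 3 medium libraries. For Il12b the log2 difference was 9.36 ± 1.22 for LPS minus medium and 3.67 ± 1.44 (SE, adjusted p = 0.066) for IL10 + TGF-β minus medium, which turned to -1.69 ± 0.76 (SE, adjusted p = 0.10) without replicate 1 of IL10 + TGF-β. For Cd40 the difference was 5.46 ± 0.66 for LPS minus medium and 0.55 ± 0.75 (SE, adjusted p = 0.62) for IL10 + TGF-β minus medium, which turned to -1.41 ± 0.51 (SE, adjusted p = 0.051) without that library. For Ccl5 it was 6.94 ± 1.58 for LPS minus medium and 1.84 ± 1.28 (SE, adjusted p = 0.30) for IL10 + TGF-β minus medium, which turned to -3.20 ± 0.79 (SE, adjusted p = 0.0087) without that library. None of these 3 cytokine differences passed with all libraries, and their positive sign rested on replicate 1. Medium replicate 3 was the lowest medium library in Il12b, Cd40 and Ccl5, so the differences also carry that spread. Aldh1a2 differed from medium in both directions, by 2.89 ± 0.77 in LPS and by -2.92 ± 0.89 in IL10 + TGF-β, or -6.75 ± 0.92 without replicate 1. For Apoe the values were 0.13 ± 0.37 for LPS minus medium and 5.52 ± 0.36 for IL10 + TGF-β minus medium, for Spp1 -0.49 ± 0.25 and 4.15 ± 0.28, and for Lrg1 0.06 ± 0.44 and 5.11 ± 0.42. Pald1 and Fcrls had the reverse arrangement, with -3.24 ± 0.19 and -3.75 ± 0.30 for LPS minus medium, and 0.67 ± 0.16 and 0.16 ± 0.24 for IL10 + TGF-β minus medium. Where LPS and both cytokines were given together, Il12b had 1.34, 0.385 and 0.402 CPM, near 0 and below replicate 1 of IL10 + TGF-β. Replicates 2 and 3 of IL10 + TGF-β had 2 counts each, too few to be ordered against these values. Apoe had 540.4, 299 and 441 CPM with LPS and both cytokines, a range that overlapped that of IL10 + TGF-β.

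**Figure D4:**
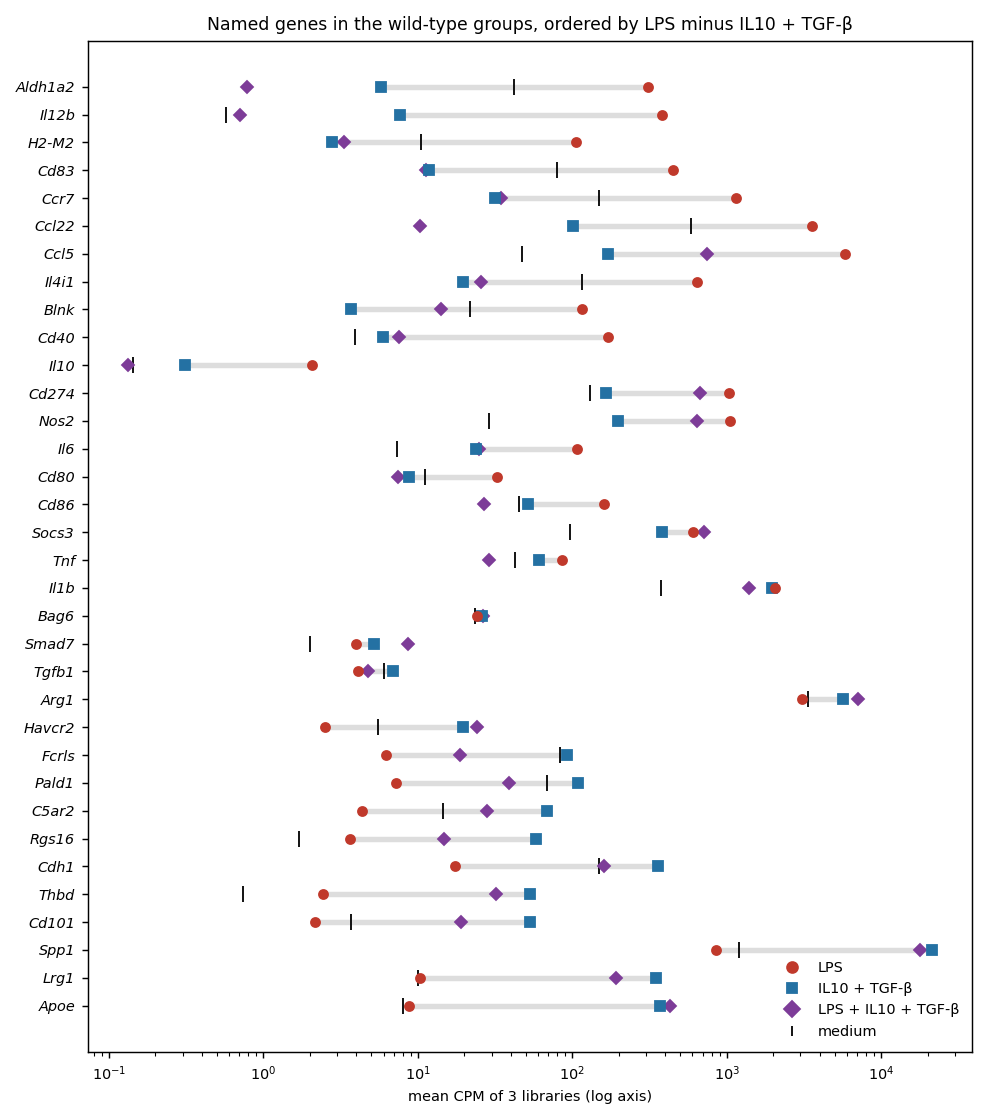
Mean CPM of 3 libraries (horizontal, log axis) in LPS (red circles), IL10 + TGF-β (blue squares), LPS + IL10 + TGF-β (purple diamonds) and medium (black ticks), for the largest rises and falls and the readout genes, ordered by the fold change of LPS over IL10 + TGF-β. The grey bar joins the 2 groups compared, and Il1b, Bag6 and Smad7 have the shortest bars.

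The inflammatory cytokines did not all separate the treatments. Among 24 cytokine genes tested, 16 were higher and 3 lower in LPS than in IL10 + TGF-β, with a median log2 fold change of 1.92 against 0.01 over all genes tested, of which 29.7% were higher and 28.7% lower. Il6, an acute-phase cytokine, had 125, 100.1 and 95.3 CPM in LPS and 27.8, 24.9 and 18.7 CPM in IL10 + TGF-β, with a log2 fold change of 2.17 ± 0.17 (SE, adjusted p = 4.1e-09). The groups were well apart, yet the cytokine libraries were above medium, which had 7.81, 8.06 and 5.97 CPM. Il12a, the p35 subunit of IL-12, had 16.6, 28.1 and 21.1 CPM in LPS and 1.65, 0.592 and 0.329 CPM in IL10 + TGF-β, with 4.71 ± 0.37 (SE, adjusted p = 3.1e-09), and 5.54 ± 0.40 without replicate 1. Ebi3, a subunit of IL-27 and IL-35, was at 198 ± 26.4 CPM in LPS and 53.5 ± 5.70 CPM in IL10 + TGF-β (SD, n = 3), with 1.89 ± 0.13 (SE, adjusted p = 1.4e-10). Tnf, the gene of tumour necrosis factor, had 87.7, 90.1 and 81.3 CPM in LPS and 62.3, 63.1 and 57.2 CPM in IL10 + TGF-β, a smaller difference of 0.50 ± 0.15 (SE, adjusted p = 0.0084).

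Il1b, which encodes the pyrogen IL-1β, had 2344, 1857 and 1939 CPM in LPS, 1957, 2269.7 and 1643 CPM in IL10 + TGF-β and 451, 421 and 259 CPM in medium. The LPS and cytokine libraries overlapped, and the log2 fold change of 0.07 ± 0.16 (SE, adjusted p = 0.76) did not pass the test. The members lower in LPS were Ltb, a lymphotoxin subunit, Osm, an IL-6 family cytokine, and Csf1, the macrophage growth factor, with log2 fold changes of -1.96 ± 0.33, -0.50 ± 0.10 and -0.43 ± 0.16. They were named after their values were seen, as was each list's smaller side of 5 or fewer members elsewhere. Il10 itself was scarce, with 55 counts over the 3 LPS libraries and 11 over the 3 IL10 + TGF-β libraries, and a log2 fold change of 2.65 ± 0.63 (SE, adjusted p = 0.0011). Ifnb1, the interferon-β gene, had 22, 6 and 9 counts in LPS and 2, 1 and 2 in IL10 + TGF-β, too few to be tested.

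Interferon-stimulated genes were higher in LPS almost throughout. Of 38 tested, 37 were higher and 0 lower in LPS, with a median of 2.18, and in all 38 the groups did not overlap, beside 29.7% higher and 64.2% without overlap among all genes tested. Herc6, a ubiquitin ligase of interferon responses, had 201, 225 and 192 CPM in LPS, 48.8, 43.2 and 35 CPM in IL10 + TGF-β and 10.8, 10.2 and 9.25 CPM in medium, so the cytokine libraries lay between LPS and medium. The log2 fold change between LPS and IL10 + TGF-β was 2.28 ± 0.13 (SE, adjusted p = 2.1e-11). Bst2, which tethers budding virions, was at 1075 ± 133 CPM in LPS, 277 ± 36.1 CPM in IL10 + TGF-β and 64.0 ± 4.97 CPM in medium (SD, n = 3), with 1.96 ± 0.11 (SE, adjusted p = 2.8e-11) between LPS and IL10 + TGF-β. Oas3, a sensor enzyme for double-stranded RNA, was at 942 ± 52.6 CPM in LPS, 232 ± 24.5 CPM in IL10 + TGF-β and 12.9 ± 2.68 CPM in medium, with 2.02 ± 0.12 (SE, adjusted p = 5.3e-11). Over the list the median difference from medium was 5.19 for LPS and 2.86 for IL10 + TGF-β, on the log2 scale. Without replicate 1 of IL10 + TGF-β the list kept 37 higher and 0 lower, with a median of 2.27.

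Transcription factors of these pathways were mostly higher in LPS. Of 24 interferon regulatory and STAT family or related factors, 19 were higher in LPS and 4 lower, with a median of 1.27. For this and each list below, the shares over all genes tested were 29.7% higher and 28.7% lower, with 58.4% called. Atf3, a stress-induced repressor, was at 855 ± 70.1 CPM in LPS and 129 ± 35.9 CPM in IL10 + TGF-β (SD, n = 3), with 2.73 ± 0.17 (SE, adjusted p = 1.1e-10), and Irf1, an interferon-induced activator, was at 85.7 ± 11.7 CPM in LPS and 28.0 ± 4.38 CPM in IL10 + TGF-β, with 1.61 ± 0.12 (SE, adjusted p = 3.6e-10). Lower factors included the myeloid factors Cebpa (-1.14 ± 0.33) and Cebpd (-0.82 ± 0.31) and Irf3, which TRIF activates (-0.32 ± 0.11).

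NF-κB genes rose broadly. Of 25 subunits, inhibitors and upstream components, 21 were higher in LPS and 1 lower, with a median of 1.08. Traf2, an adaptor of TNF receptor family signals, was at 75.1 ± 2.53 CPM in LPS and 23.1 ± 1.6 CPM in IL10 + TGF-β (SD, n = 3), with 1.70 ± 0.11 (SE, adjusted p = 1.2e-10). Nfkb2, the p100 precursor of the alternative pathway, was at 217 ± 15.4 CPM in LPS and 76.6 ± 6.18 CPM in IL10 + TGF-β, with 1.5 ± 0.11 (SE, adjusted p = 4.2e-10). Nfkbib, an inhibitor that holds NF-κB in the cytoplasm, was at 139 ± 6.97 CPM in LPS and 50.3 ± 5.13 CPM in IL10 + TGF-β, with 1.47 ± 0.10 (SE, adjusted p = 2.3e-10). The lower gene was Nfkbid, a nuclear IκB protein, at -0.83 ± 0.16. The subunit gene Rela had 79.0 CPM in LPS and 79.9 CPM in IL10 + TGF-β and did not pass.

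Receptors and adaptors of pathogen sensing went both ways, with 17 of 28 higher in LPS, 4 lower and a median of 0.77. Ticam2, the bridging adaptor between TLR4 and TRIF, had 90.2, 90.3 and 81.9 CPM in LPS and 17.9, 12.3 and 15.1 CPM in IL10 + TGF-β, with 2.53 ± 0.12 (SE, adjusted p = 4.2e-12). Tlr2, the receptor for bacterial lipoproteins, ran the other way, with 263, 241 and 226 CPM in LPS and 738, 788 and 761 CPM in IL10 + TGF-β, and -1.65 ± 0.09 (SE, adjusted p = 2e-11). In neither gene did the groups overlap. Ifih1, the cytoplasmic RNA sensor MDA5, was at 170.3 ± 6.02 CPM in LPS and 51.1 ± 6.17 CPM in IL10 + TGF-β (SD, n = 3), with 1.74 ± 0.11 (SE, adjusted p = 6e-11). The other lower members were the kinase Irak4 (-0.73 ± 0.12), the adaptor Tirap (-0.55 ± 0.12) and Tlr4 itself (-0.40 ± 0.11), which had 149.5 CPM in LPS and 197 CPM in IL10 + TGF-β.

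Feedback inhibitors of cytokine and MAP kinase signals divided, with 14 of 25 higher in LPS, 5 lower and a median of 0.65. Socs1, which blocks JAK kinases, was at 69.6 ± 23.1 CPM in LPS and 20.4 ± 1.71 CPM in IL10 + TGF-β (SD, n = 3), with 1.77 ± 0.17 (SE, adjusted p = 3.2e-08). Dusp4, a nuclear MAP kinase phosphatase, had 13.1, 6.53 and 8.83 CPM in LPS and 0.485, 0.423 and 0.164 CPM in IL10 + TGF-β, with 4.71 ± 0.47 (SE, adjusted p = 4.5e-08). The lower genes were Rgs16, Rgs2 and the ERK pathway inhibitors Spry2, Spry1 and Dusp6. Rgs2, a regulator of G protein signalling, was at 26.7 ± 2.43 CPM in LPS and 78.0 ± 8.03 CPM in IL10 + TGF-β, with -1.55 ± 0.14 (SE, adjusted p = 8.7e-09), and Spry2, Spry1 and Dusp6 had -2.34 ± 0.30, -2.20 ± 0.50 and -0.96 ± 0.17. Socs3, an inhibitor of IL-6 signals and a STAT3 target, had 476, 777 and 552 CPM in LPS and 385, 408 and 356 CPM in IL10 + TGF-β, with 0.65 ± 0.15 (SE, adjusted p = 0.00075). It was above medium in both, by 2.64 ± 0.16 in LPS and 1.99 ± 0.15 in IL10 + TGF-β (SE).

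Genes that read out the cytokines' own pathways were not all higher with the cytokines than with LPS. Of 24 TGF-β target genes, 7 were higher and 11 lower in LPS, with a median of -0.32. Among all genes tested, 29.7% were higher and 28.7% lower. The median was -0.06 (6 higher, 11 lower) without replicate 1 of IL10 + TGF-β, 0 with DESeq2, -0.97 among genes with at least 5 CPM in 3 libraries and -1.05 on the log2(TPM + 0.1) scale. Against medium, the list's median log2 difference was 0.53 for LPS and 0.78 for IL10 + TGF-β. Id1, an inhibitor of differentiation factors, had 3.92, 2.10 and 5.41 CPM in LPS, 52.4, 54.6 and 57.2 CPM in IL10 + TGF-β and 7.81, 8.40 and 9.42 CPM in medium. The cytokine libraries were the highest, LPS the lowest, and the log2 fold change was -3.83 ± 0.20 (SE, adjusted p = 8.4e-12). Col4a1, a basement membrane collagen, had 0.448, 0.233 and 0.441 CPM in LPS and 13.9, 13.5 and 17.1 CPM in IL10 + TGF-β, with -5.26 ± 0.33 (SE, adjusted p = 7.1e-11), and rested on 10 counts over the 3 LPS libraries. Ski, a repressor of SMAD proteins, was at 39.8 ± 4.15 CPM in LPS and 117 ± 1.41 CPM in IL10 + TGF-β (SD, n = 3), with -1.55 ± 0.10 (SE, adjusted p = 1.2e-10). Smad7, the inhibitory SMAD, had 3.24, 5.13 and 3.64 CPM in LPS and 3.98, 6.34 and 5.18 CPM in IL10 + TGF-β. These overlapped, and -0.37 ± 0.26 (SE, adjusted p = 0.23) did not pass. Smad7 was above medium in both, by 0.99 ± 0.29 (SE, adjusted p = 0.0055) in LPS and 1.36 ± 0.27 (SE, adjusted p = 0.00046) in IL10 + TGF-β.

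Of 28 IL10 and STAT3 target genes, 16 were higher in LPS and 5 lower, with a median of 0.66. Over the list the median log2 difference from medium was 1.26 for LPS and 0.87 for IL10 + TGF-β. Ddit4, a stress-induced inhibitor of mTOR, was at 16.0 ± 2.37 CPM in LPS and 2.76 ± 0.264 CPM in IL10 + TGF-β (SD, n = 3), with 2.53 ± 0.16 (SE, adjusted p = 5.4e-11). Tnfrsf1b, the second TNF receptor, was at 1473 ± 170.2 CPM in LPS and 351 ± 45.1 CPM in IL10 + TGF-β, with 2.07 ± 0.13 (SE, adjusted p = 5.9e-11). Hmox1, the haem-degrading enzyme, was at 2632 ± 152 CPM in LPS and 638 ± 93.5 CPM in IL10 + TGF-β, with 2.04 ± 0.14 (SE, adjusted p = 1.8e-10). The lower genes included Mrc1, the mannose receptor (-1.84 ± 0.24), Arg1 (-0.87 ± 0.14), the scavenger receptor Msr1 (-0.48 ± 0.13) and the IL-4 receptor chain Il4ra (-0.37 ± 0.11).

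Among 24 genes of IL10 and TGF-β ligands, receptors and SMADs, 14 were higher in LPS and 5 lower, with a median of 0.58. Besides Ski, which this list shares, the smallest p-values belonged to Eng and Acvrl1. Eng, the co-receptor endoglin, had 26.7, 26.6 and 26.6 CPM in LPS and 4.75, 2.71 and 2.63 CPM in IL10 + TGF-β, with 3.00 ± 0.24 (SE, adjusted p = 2e-09). Acvrl1, the type I receptor ALK1, was at 78.8 ± 7.35 CPM in LPS and 26.5 ± 3.69 CPM in IL10 + TGF-β (SD, n = 3), with 1.57 ± 0.14 (SE, adjusted p = 4.3e-09). The lower members besides Ski were the receptors Tgfbr1 (-1.55 ± 0.15) and Tgfbr2 (-0.44 ± 0.08), the signal carrier Smad2 (-0.33 ± 0.11) and Tgfb1. Tgfb1 encodes TGF-β1 and had 4.03, 4.90 and 3.31 CPM in LPS and 5.92, 8.37 and 6.58 CPM in IL10 + TGF-β, with -0.77 ± 0.27 (SE, adjusted p = 0.017). It lost the call without LPS replicate 3 (-0.64, adjusted p = 0.079) and without IL10 + TGF-β replicate 2 (-0.63, adjusted p = 0.075). Without LPS replicate 3 this list had 3 lower members rather than 5.

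T-cell ligands rose in LPS, with exceptions on the inhibitory side. Of 21 costimulatory and inhibitory ligands and related molecules, 16 were higher and 3 lower, with a median of 1.27. The pair Cd80 and Cd86, ligands of CD28, had 38.3, 27.6 and 32.2 and 189.7, 126 and 163 CPM in LPS, and 11.2, 9.05 and 6.00 and 56.2, 55.6 and 42.2 CPM in IL10 + TGF-β. All LPS libraries were above all cytokine libraries, with log2 fold changes of 1.91 ± 0.27 (SE, adjusted p = 8.6e-06) for Cd80 and 1.64 ± 0.42 (SE, adjusted p = 0.0049) for Cd86. Cd274, which encodes the inhibitory ligand PD-L1, had 874, 1225 and 1022 CPM in LPS and 199.6, 179.8 and 118 CPM in IL10 + TGF-β, with 2.65 ± 0.21 (SE, adjusted p = 8.5e-09), and Lgals9, the lectin galectin-9, was at 745 ± 104 CPM in LPS and 359 ± 11.1 CPM in IL10 + TGF-β (SD, n = 3), with 1.06 ± 0.11 (SE, adjusted p = 8.3e-08). The 3 lower genes were Cd276, Havcr2 and Cd200r1. Cd276, the B7-H3 ligand, had 1.68, 1.63 and 0.662 CPM in LPS and 13.8, 16.2 and 18.7 CPM in IL10 + TGF-β, with -3.61 ± 0.32 (SE, adjusted p = 7.8e-09). Havcr2, which encodes the inhibitory receptor TIM-3, had 4.03, 1.63 and 1.88 CPM in LPS and 25.5, 24.7 and 8.96 CPM in IL10 + TGF-β, with -2.96 ± 0.48 (SE, adjusted p = 8.1e-05), and Cd200r1, an inhibitory receptor, had -0.38 ± 0.09. Bag6, the gene called Bat3 in the series, did not pass, with 24.0 ± 0.757 CPM in LPS and 26.1 ± 0.258 CPM in IL10 + TGF-β (adjusted p = 0.53).

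Antigen presentation differed in both classes. Of 20 genes of MHC class II presentation, 15 were higher in LPS and 2 lower, with a median of 0.66, and without replicate 1 of IL10 + TGF-β 12 were higher and 2 lower. Cd74, the invariant chain, had 2578, 2867 and 2512 CPM in LPS, 597, 439.7 and 416 CPM in IL10 + TGF-β and 3808, 3178 and 1820.2 CPM in medium, so the cytokine libraries were the low ones. The log2 fold change between LPS and IL10 + TGF-β was 2.45 ± 0.25 (SE, adjusted p = 4.4e-07). Ciita, the master activator of class II genes, was at 51.9 ± 12.4 CPM in LPS and 11.2 ± 2.62 CPM in IL10 + TGF-β (SD, n = 3), with 2.22 ± 0.29 (SE, adjusted p = 7.6e-06). The lower genes were Cd9, a tetraspanin, at 652 ± 62.4 CPM in LPS and 1882 ± 54.4 CPM in IL10 + TGF-β (-1.53 ± 0.09 (SE, adjusted p = 4.7e-11)), and the lysosomal protease Ctsl (-1.13 ± 0.21). Over the list the median log2 difference from medium was -0.04 for LPS and -0.87 for IL10 + TGF-β.

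Of 22 genes of MHC class I presentation and the immunoproteasome, 16 were higher in LPS and 0 lower, with a median of 0.93. Tapbp, which loads peptides on class I, was at 1404 ± 171 CPM in LPS and 500.5 ± 43.2 CPM in IL10 + TGF-β (SD, n = 3), with 1.49 ± 0.10 (SE, adjusted p = 1.5e-10), and Tap1, the peptide transporter, was at 636 ± 15.7 CPM in LPS and 211 ± 24.1 CPM in IL10 + TGF-β, with 1.59 ± 0.13 (SE, adjusted p = 2.7e-09). Psme2, a proteasome activator subunit, was at 527 ± 111 CPM in LPS and 198 ± 21.1 CPM in IL10 + TGF-β, with 1.41 ± 0.12 (SE, adjusted p = 3.1e-09). Here both treatments lay above medium in the median, by 1.63 for LPS and 0.66 for IL10 + TGF-β on the log2 scale. The closely related H2-Q genes share reads and are uncertain.

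Chemokines were mixed, with 12 of 23 higher in LPS and 4 lower, and a median of 0.50. Their called share was 69.6%, against 58.4% over all genes tested. Besides Ccl5 and Ccl22, Cxcl11, an interferon-induced ligand of CXCR3, had 21.4, 46.2 and 24.2 CPM in LPS and 1.65, 0.254 and 0.658 CPM in IL10 + TGF-β, with 5.2 ± 0.42 (SE, adjusted p = 2.5e-08), and 6.02 ± 0.48 without replicate 1. Cx3cl1, a membrane-bound chemokine, was at 30.4 ± 3.71 CPM in LPS and 6.99 ± 2.38 CPM in IL10 + TGF-β (SD, n = 3), with 2.12 ± 0.24 (SE, adjusted p = 3.4e-07). Ccl12, a monocyte attractant of mice, had 2.01, 0.933 and 1.10 CPM in LPS and 11.4, 14.0 and 9.21 CPM in IL10 + TGF-β, with -3.08 ± 0.33 (SE, adjusted p = 8.1e-08). The other lower chemokines were Cxcl14 (-2.28 ± 0.46), Ccl24 (-2.28 ± 0.42) and Ccl6 (-0.91 ± 0.14). Of 28 genes of migration and adhesion, 20 were higher and 6 lower in LPS, with a median of 1.46. Itga4, the α4 integrin, was at 67.3 ± 6.44 CPM in LPS and 20.0 ± 3.74 CPM in IL10 + TGF-β, with 1.75 ± 0.14 (SE, adjusted p = 1e-09), and Relb, an NF-κB subunit of dendritic cell maturation, was at 126 ± 11 CPM in LPS and 45.5 ± 4.50 CPM in IL10 + TGF-β, with 1.47 ± 0.13 (SE, adjusted p = 3.9e-09). Ccr2, the receptor that draws monocytes to inflamed tissue, had 136, 66.3 and 96.5 CPM in LPS and 471, 449 and 460.2 CPM in IL10 + TGF-β, with a log2 fold change of -2.21 ± 0.17 (SE, adjusted p = 2.9e-09). CCR7 and CCR2 transcripts thus moved in opposite directions.

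Molecules linked to tolerogenic dendritic cells did not gather on the cytokine side. Of 25 tested, 11 were higher and 10 lower in LPS, with a median of 0.15, which turned to -0.09 on the log2(TPM + 1) scale and to -0.14 when genes had to reach 5 CPM in at least 3 libraries. The higher ones included Aldh1a2, Cd274, Hmox1 and Il10, described above, and Fgl2, a secreted inhibitor of T cells, which had 244, 574 and 303 CPM in LPS and 47.7, 30.4 and 33.8 CPM in IL10 + TGF-β (3.33 ± 0.33 (SE, adjusted p = 1.1e-06)). Those lower in LPS included Havcr2, Tgfb1 and Arg1, the enzyme that splits arginine. Arg1 had 3074, 2679 and 3529.7 CPM in LPS and 5626, 6642 and 4671 CPM in IL10 + TGF-β, with -0.87 ± 0.14 (SE, adjusted p = 1.3e-05).

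Macrophage identity and clearance genes leaned to the cytokine side, with 8 of 24 higher and 13 lower in LPS, and a median of -0.74. C1qa, a chain of complement C1q, had 5.26, 7.0 and 4.30 CPM in LPS, 82.3, 75.6 and 61.3 CPM in IL10 + TGF-β and 53.0, 34.7 and 33.8 CPM in medium. LPS libraries were the lowest and cytokine libraries the highest, with -3.73 ± 0.23 (SE, adjusted p = 2.9e-10) between LPS and IL10 + TGF-β. C1qb, its partner chain, was at 40.3 ± 10.3 CPM in LPS and 209 ± 17.6 CPM in IL10 + TGF-β (SD, n = 3), with -2.38 ± 0.17 (SE, adjusted p = 1.8e-09), and Sepp1, the selenium carrier selenoprotein P, was at 72.1 ± 7.30 CPM in LPS and 259 ± 6.02 CPM in IL10 + TGF-β, with -1.84 ± 0.11 (SE, adjusted p = 4.8e-11). Of 21 Fc receptor and complement genes, 6 were higher and 12 lower in LPS, with a median of -0.89. Their summed level went the other way, from 10190 to 13640 CPM in LPS and from 5523 to 6559 CPM in IL10 + TGF-β, with Cfb, complement factor B, at 5151 ± 1208 CPM in LPS and 472 ± 224 CPM in IL10 + TGF-β (SD, n = 3; log2 fold change 3.45 ± 0.40). The other higher genes were C2, C3, C3ar1, Fcgr1 and Fcer1g, with log2 fold changes of 0.69 to 3.81, named like Cfb after their values were seen. Cd93, a receptor of apoptotic cell uptake, was at 14.6 ± 1.58 CPM in LPS and 154 ± 8.37 CPM in IL10 + TGF-β, with -3.40 ± 0.20 (SE, adjusted p = 1.6e-10), and Fcgrt, the neonatal Fc receptor, was at 14.5 ± 0.585 CPM in LPS and 57.8 ± 2.65 CPM in IL10 + TGF-β, with -2.0 ± 0.13 (SE, adjusted p = 1.5e-10). Summed over the macrophage list, however, CPM ran from 5714 to 5903 in LPS and from 3979 to 4893 in IL10 + TGF-β, with abundant members higher in LPS. Named after their values were seen, these were the scavenger receptors Marco (3.77 ± 0.67) and Cd36 (2.93 ± 0.28) and the lysosomal glycoprotein Gpnmb (2.47 ± 0.22).

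Markers of dendritic identity were higher in LPS in 12 of 22 genes and lower in 3, with a median of 0.79. Their called share was 68.2%, against 58.4% over all genes tested. Zbtb46, a transcription factor of classical dendritic cells, had 17.5, 18.2 and 20.5 CPM in LPS, 2.62, 1.44 and 1.32 CPM in IL10 + TGF-β and 19.7, 20.1 and 11.9 CPM in medium. LPS and medium overlapped, and the cytokine libraries were lower than both, with 3.40 ± 0.27 (SE, adjusted p = 1.7e-09) between LPS and IL10 + TGF-β. Batf3, a factor of cross-presenting dendritic cells, had 24.4, 25.4 and 27.4 CPM in LPS, 3.98, 0.846 and 1.23 CPM in IL10 + TGF-β and 18.2, 18.9 and 15.5 CPM in medium, with 3.71 ± 0.30 (SE, adjusted p = 3.6e-09) between LPS and IL10 + TGF-β, and 4.61 ± 0.24 without replicate 1. The 3 lower genes were Ffar2, a receptor for short-chain fatty acids, at 12.3 ± 2.81 CPM in LPS and 92.6 ± 11.7 CPM in IL10 + TGF-β (-2.92 ± 0.16 (SE, adjusted p = 1.1e-11), SD with n = 3 for the levels), Cd24a (-3.13 ± 0.22) and Sirpa (-0.55 ± 0.10). Over the list the median log2 difference from medium was -0.03 for LPS and -1.28 for IL10 + TGF-β.

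Transcripts of other blood cells moved with the comparison. Of 14 granulocyte and precursor genes, 0 were higher and 10 lower in LPS, with a median of -1.92, or -2.54 without LPS replicate 3, and the median log2 difference from medium was 0.42 for LPS and 3.13 for IL10 + TGF-β. Prtn3, a granule protease, had 0.895, 2.45 and 1.54 CPM in LPS and 16.8, 15.8 and 19.4 CPM in IL10 + TGF-β, with -3.41 ± 0.36 (SE, adjusted p = 1.5e-07). Ltf, lactoferrin, had 60.2, 30.8 and 137 CPM in LPS and 672, 507 and 1055 CPM in IL10 + TGF-β, with -3.29 ± 0.58 (SE, adjusted p = 0.0003), and -4.03 without LPS replicate 3. Mmp8, neutrophil collagenase, was at 309.5 ± 79.9 CPM in LPS and 937 ± 50.3 CPM in IL10 + TGF-β (SD, n = 3), with -1.6 ± 0.23 (SE, adjusted p = 2.1e-05). Of 9 mast cell and basophil genes tested, 1 was higher (Hdc, which makes histamine, 1.68 ± 0.31) and 8 were lower. Cma1 and Tpsb2, mast cell proteases, had 0 counts in all LPS libraries and 131 and 43 counts over the 3 IL10 + TGF-β libraries, which made them at least 11.3-fold and at least 3.68-fold lower in LPS, against a floor of 3 counts per library. Cpa3, mast cell carboxypeptidase, had 0.559, 0.117 and 0.331 CPM in LPS and 5.63, 2.96 and 8.96 CPM in IL10 + TGF-β, with -4.06 ± 0.58 (SE, adjusted p = 5e-06). The part of these cells in the results on Spp1, the clearance genes or any other list was not tested.

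Of 3 lymphocyte genes tested, Gzmb, granzyme B, had 1 count in LPS and 63 in IL10 + TGF-β over 3 libraries each, Lck, a T-cell kinase, was higher by 1.25 ± 0.39 (SE, adjusted p = 0.0098), and Thy1 did not pass. Lck lost its call without LPS replicate 2. None of 5 sex-linked genes passed, but Uty and Ddx3y did with wild-type groups only (0.66, adjusted p = 0.0070, and 0.25, adjusted p = 0.026). With all 18 libraries their SE was 0.74 and 0.87, so that fit could hardly call differences of this size.

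**Figure D5:**
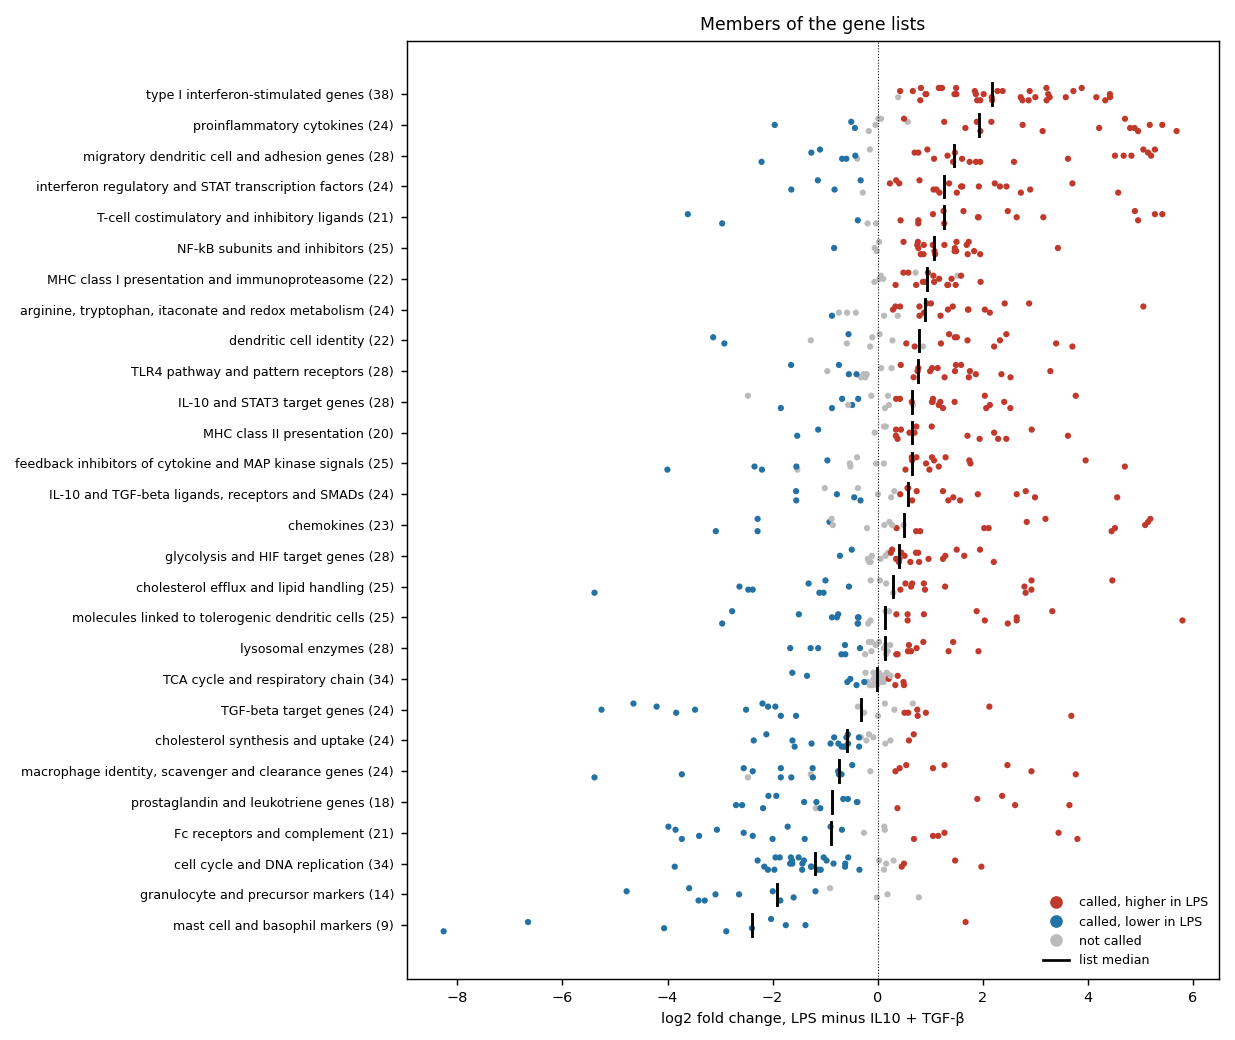
Log2 fold change of LPS over IL10 + TGF-β (horizontal) for every tested member of 28 gene lists, ordered by list median (black bar), with the number tested in brackets. Red members passed the test and were higher in LPS, blue passed and were lower, grey did not pass. Interferon-stimulated genes have the highest median at 2.18, and mast cell and basophil genes the lowest at -2.39.

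Cell cycle genes were lower in LPS in 26 of 34 cases and higher in 4, with a median of -1.20. Myc, the growth-promoting transcription factor, had 9.18, 3.62 and 5.30 CPM in LPS, 81.3, 88.2 and 94.8 CPM in IL10 + TGF-β and 94.8, 97.1 and 118 CPM in medium. Cytokine and medium libraries were close to each other and LPS lay far below them, and the log2 fold change between LPS and IL10 + TGF-β was -3.86 ± 0.20 (SE, adjusted p = 2.8e-11). Where LPS was given with both cytokines, Myc had 7.53, 8.29 and 9.55 CPM. Ccnb2, a mitotic cyclin, was at 14.5 ± 0.410 CPM in LPS and 64.5 ± 13.0 CPM in IL10 + TGF-β (SD, n = 3), with -2.16 ± 0.16 (SE, adjusted p = 9.1e-10). Of the 4 higher genes, Cdkn1a, the cyclin kinase inhibitor p21, was at 1587 ± 34.1 CPM in LPS and 403 ± 68.7 CPM in IL10 + TGF-β, with 1.98 ± 0.12 (SE, adjusted p = 6e-11), and the cyclins Ccnd2, Ccnd1 and Ccne2 had 1.48 ± 0.12, 0.50 ± 0.17 and 0.46 ± 0.16.

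Among 24 genes of arginine, tryptophan, itaconate and redox metabolism, 18 were higher in LPS and 1, Arg1, was lower, with a median of 0.91. Irg1, which makes itaconate, had 3192, 3074 and 2814 CPM in LPS and 549, 391 and 287 CPM in IL10 + TGF-β, with 2.89 ± 0.19 (SE, adjusted p = 5.8e-10), and Sod2, mitochondrial superoxide dismutase, was at 1254 ± 228 CPM in LPS and 380.2 ± 40.4 CPM in IL10 + TGF-β (SD, n = 3), with 1.72 ± 0.12 (SE, adjusted p = 3.6e-10). Nos2, the inducible nitric oxide synthase that competes with arginase for arginine, had 855, 1230.4 and 1071 CPM in LPS, 231, 223 and 135 CPM in IL10 + TGF-β and 32.4, 32.7 and 21.1 CPM in medium, with 2.42 ± 0.22 (SE, adjusted p = 1.2e-07) between LPS and IL10 + TGF-β. Nos2 and Arg1 thus differed in opposite directions between the treatments.

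Of 28 glycolysis and HIF target genes, 18 were higher in LPS and 2 lower, with a median of 0.41, and on the log2(TPM + 1) scale 11 were higher. Over the list the median log2 difference from medium was 0.06 for LPS and -0.20 for IL10 + TGF-β. Hk3, a hexokinase, was at 342 ± 12.1 CPM in LPS and 109 ± 15.1 CPM in IL10 + TGF-β (SD, n = 3), with 1.65 ± 0.11 (SE, adjusted p = 7.8e-11), Hk2 was at 174 ± 28.0 CPM in LPS and 73.4 ± 4.41 CPM in IL10 + TGF-β, with 1.25 ± 0.10 (SE, adjusted p = 2.7e-09), and the sugar transporter Slc2a6 was at 181 ± 37.8 CPM in LPS and 39.1 ± 8.10 CPM in IL10 + TGF-β, with 2.21 ± 0.16 (SE, adjusted p = 1e-09). For LPS minus medium, Hk3, Hk2 and Slc2a6 had 1.84 ± 0.11, 1.54 ± 0.10 and -0.09 ± 0.15 (SE). For IL10 + TGF-β minus medium, these genes had 0.19 ± 0.10, 0.29 ± 0.10 and -2.30 ± 0.16 (SE). The 2 genes lower in LPS than in IL10 + TGF-β were Aldoc (-0.72 ± 0.12) and Hif1a (-0.49 ± 0.09). Of 34 genes of the TCA cycle and respiratory chain, 6 were higher and 6 lower, with a median of -0.02. Their called share of 35.3% was below the 58.4% over all genes tested. Among the lower genes were 3 of isocitrate dehydrogenase: Idh2 had 44.0, 40.4 and 37.0 CPM in LPS and 97.4, 96.7 and 114 CPM in IL10 + TGF-β, with -1.34 ± 0.11 (SE, adjusted p = 1.5e-09), while Idh3a and Idh3g, subunits of the NAD-linked enzyme, had -1.62 ± 0.22 (SE, adjusted p = 6.8e-06) and -0.57 ± 0.09 (SE, adjusted p = 2.3e-05).

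Genes of cholesterol synthesis and uptake were lower in LPS in 16 of 24 cases and higher in 2, among them Mvd (0.69 ± 0.11), with a median of -0.58. Sqle, squalene epoxidase, was at 30.4 ± 4.90 CPM in LPS and 90.9 ± 5.95 CPM in IL10 + TGF-β (SD, n = 3), with -1.58 ± 0.12 (SE, adjusted p = 6e-10). Cyp51 and Hsd17b7, later enzymes of the pathway, had -1.26 ± 0.10 (SE, adjusted p = 2.4e-09) and -2.12 ± 0.18 (SE, adjusted p = 2.9e-09). Of 25 genes of cholesterol efflux and lipid handling, 12 were higher and 9 lower, with a median of 0.30. Acsl1, which activates fatty acids, had 598, 884 and 603 CPM in LPS and 115, 80.3 and 77.8 CPM in IL10 + TGF-β, with 2.93 ± 0.17 (SE, adjusted p = 1.3e-10). Ch25h, which hydroxylates cholesterol, had 14.9, 14.8 and 10.6 CPM in LPS and 85.8, 98.8 and 64.8 CPM in IL10 + TGF-β, with -2.63 ± 0.18 (SE, adjusted p = 2.7e-10), and Pparg, a nuclear receptor of lipid storage, was at 12.7 ± 3.44 CPM in LPS and 70.1 ± 7.17 CPM in IL10 + TGF-β, with -2.46 ± 0.17 (SE, adjusted p = 3.4e-10).

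Prostaglandin and leukotriene genes were lower in LPS in 11 of 18 cases and higher in 5, with a median of -0.87. The leukotriene enzymes were on the cytokine side: Alox5, 5-lipoxygenase, had 30.3, 15.6 and 30.3 CPM in LPS and 140.5, 146 and 170.3 CPM in IL10 + TGF-β, with -2.58 ± 0.18 (SE, adjusted p = 1.2e-09), and its activating protein Alox5ap was at 198 ± 14.3 CPM in LPS and 522 ± 29.9 CPM in IL10 + TGF-β (SD, n = 3), with -1.40 ± 0.09 (SE, adjusted p = 1.4e-10). Ptgir, the prostacyclin receptor, had 52.7, 102 and 78.2 CPM in LPS and 17.1, 14.8 and 13.2 CPM in IL10 + TGF-β, with 2.37 ± 0.17 (SE, adjusted p = 4.9e-10). The other 4 higher genes were Ptgs2, the inducible cyclooxygenase (3.65 ± 0.45), the prostaglandin E synthase Ptges (2.62 ± 0.23), Pla2g7 (1.90 ± 0.15) and the receptor Ptger4 (0.38 ± 0.15). Of 28 lysosomal genes, 10 were higher and 7 lower with a median of 0.14, a called share of 60.7% that was close to the 58.4% over all genes. Man2b1, lysosomal α-mannosidase, was at 154 ± 7.08 CPM in LPS and 489 ± 8.02 CPM in IL10 + TGF-β, with -1.66 ± 0.08 (SE, adjusted p = 4.2e-12), while the cathepsin Ctsz and the galactosidase Gla had 1.44 ± 0.10 (SE, adjusted p = 2.4e-10) and 1.35 ± 0.11 (SE, adjusted p = 1.4e-09).

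Promoters of the 2 highest-ranked rises and the 2 highest-ranked falls are shown so that the sequence before the start of Aldh1a2 and Il12b can be set beside that of Apoe and Lrg1. Each is the 250 bases upstream of a RefSeq start on GRCm38.p6 (mm10), 5′ to 3′ on the gene's strand, and for Apoe 1 of 3 starts listed. Capitals mark a match to the interferon-stimulated response element GAAANNGAA, searched on both strands with 7 further motifs.
Aldh1a2 (chr9:71215539-71215788, + strand): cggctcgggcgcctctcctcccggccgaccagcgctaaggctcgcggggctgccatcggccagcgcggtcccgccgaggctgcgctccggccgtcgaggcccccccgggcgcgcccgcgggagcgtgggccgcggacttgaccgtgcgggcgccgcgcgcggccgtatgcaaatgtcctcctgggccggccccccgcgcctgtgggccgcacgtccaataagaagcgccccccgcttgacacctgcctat
Il12b (chr11:44399813-44400062, + strand): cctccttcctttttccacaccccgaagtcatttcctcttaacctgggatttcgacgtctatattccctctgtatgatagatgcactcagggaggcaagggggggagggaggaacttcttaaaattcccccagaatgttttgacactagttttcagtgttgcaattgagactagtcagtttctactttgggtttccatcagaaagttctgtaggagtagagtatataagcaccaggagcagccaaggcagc
Apoe (chr7:19699189-19699438, - strand): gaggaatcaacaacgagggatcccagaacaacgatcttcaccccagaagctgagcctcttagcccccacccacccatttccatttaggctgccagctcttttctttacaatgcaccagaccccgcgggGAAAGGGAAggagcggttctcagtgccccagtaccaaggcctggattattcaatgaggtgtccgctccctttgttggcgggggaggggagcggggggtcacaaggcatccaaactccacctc
Lrg1 (chr17:56121947-56122196, - strand): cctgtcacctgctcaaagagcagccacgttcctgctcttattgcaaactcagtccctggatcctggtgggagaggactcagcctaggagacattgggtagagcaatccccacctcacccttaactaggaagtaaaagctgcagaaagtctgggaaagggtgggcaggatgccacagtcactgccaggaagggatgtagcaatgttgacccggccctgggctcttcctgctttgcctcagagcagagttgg
The Aldh1a2 window held 40 CpG and 77.6% G + C and the Il12b window 3 CpG and 46% G + C, so the promoters of the leading rises differed in composition. The Apoe window had 8 CpG and 57.2% G + C, and the Lrg1 window 2 CpG and 55.2% G + C. A match was found in Apoe alone, 122 to 114 bases before the start, and a match describes letters, not binding.

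Over all genes, 9550 of 11876 tested matched a promoter of the table. The interferon element was in 8.46% of 2825 promoters of genes higher in LPS, 6.24% of 2756 of genes lower in LPS and 6.52% of all tested. The NF-κB motif GGNNTTNCC was in 16.1% of those higher, 13.3% of those lower and 14.6% of all tested. The E-box CACGTG, which MYC and related factors bind, was in 7.65% of those higher, 9.87% of those lower and 8.51% of all tested. The STAT motif TTCNNNGAA was in 6.16% of those higher and 6.53% of those lower, the AP-1 motif TGACTCA in 3.36% and 3.23%, and the SMAD motif GTCTAGAC in 0.248% and 0.218%. The CREB motif TGACGTCA was in 2.97% of those higher and 2.21% of those lower, and the sterol element TCACCCCAC in 0.708% and 0.29%. Promoters of genes higher and genes lower both had a median of 59.6% G + C. Genes are not independent replicates, and these shares are descriptions without a test.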

How the data were processed

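RNA of 6 wild-type libraries was compared, 3 with LPS and 3 with IL10 + TGF-β. The deposited values are gene-level expected counts and TPM, made by the authors with RSEM on mm10 after bcl2fastq, per the file headers and the submitters' processing notes, which give no versions. The sources used here do not give strandedness, and reads of overlapping or antisense genes cannot be told apart. All table columns were mapped, with 0 left unmapped. Ribosomal precursor RNA (Rn45s) took 6.28% ± 1.64 of counts in LPS and 7.56% ± 1.15 in IL10 + TGF-β (SD). Within each group all pairs of libraries differed beyond sampling noise (chi-square over degrees of freedom 10.6 to 22.8).

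Expected counts were rounded. All 18 libraries in 6 groups were fitted together with edgeR 4.0.16 (R 4.3.3), TMM scaling, filterByExpr and the robust quasi-likelihood F-test, without covariates. P-values were adjusted by Benjamini-Hochberg over all 11876 genes tested, and an adjusted p under 0.05 was called. Standard errors are the log2 fold change divided by the root of F. The common biological coefficient of variation was 0.133. The procedure was tested on simulated counts. The genes compared, the 30 lists, the 18 readout genes and the naming rule were chosen with earlier results of these data known. The rule named the readouts, the 10 largest rises and falls that were called, averaged 3 or more in log2 CPM and showed no overlap, and 3 called members per list with the smallest p. Some genes that the rule or the lists name are not reported here. Fits without replicate 1 of IL10 + TGF-β that rank genes again or compare with medium were chosen after seeing the data. A floor of 3 counts per library was used where a group had 0, and it covers counting error only. Promoter sequences and gene positions are RefSeq's (GRCm38.p6). Motif shares need no test and have none.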

Additional observations from a re-analysis of the deposited data

How the results depend on the processing

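With a requirement of at least 2-fold, 3001 genes were called, 1484 higher and 1517 lower in LPS. Under all other alternatives the count stayed within 1.5 times of 6932: 6916 with RLE scaling, 6948 with upper-quartile scaling, 6872 with DESeq2 1.42.0, 6841 with no count filter, 6258 with at least 5 CPM in 3 libraries, 6942 with wild-type groups only, 6912 with Rn45s removed and 6681 with limma 3.58.1 on log2(TPM + 1). On that TPM scale the median of all genes was -0.09 and 42.4% of calls were higher in LPS, against 50.9% in the counts. Leaving out 1 library gave 6127 to 6661 calls. Same-numbered LPS and IL10 + TGF-β libraries deviated from their group means with correlations of -0.007, 0.083 and 0.014 over 6224 genes. Differently numbered ones ran from -0.133 to 0.119. These values cover the 2 groups compared only and do not settle whether the numbers pair the libraries. With a replicate block 6971 genes were called, and 6379 with a replicate block and only the groups compared, against 6619 with only the groups compared. Of 116 named genes tested, 101 kept their direction and side of the threshold in every alternative. Aldh1a2, Blnk, Ccl22, Ccl5, Ccr7, Cd40, Cd83, Il12b and Il4i1 lost the call with the block and only the groups compared, though their log2 fold changes there, 5.23 to 8.42, were not smaller, and Tnf on log2(TPM + 1) without a filter (adjusted p = 0.079). Uty, not called with all 18 libraries and the count filter, was called at 0.65 without a count filter, 0.66 with wild-type groups only, 0.66 with only the groups compared and 0.67 with those and the block, and Ddx3y with wild-type groups only. The median of the mast cell and basophil list ran from -3.12 on log2(TPM + 0.1) to -1.23 on log2(TPM + 1) without a filter. Il1b, never called, changed sign to -0.0406 on log2(TPM + 1), -0.0407 on log2(TPM + 0.1), -0.0406 on log2(TPM + 1) without a filter, to -0.0449 without LPS replicate 1 and to -0.0490 without IL10 + TGF-β replicate 3; leaving out each library gave -0.0490 to 0.170. The causes were not tested. Low counts, as in Il10, Gzmb, Cma1 and Tpsb2, limit the precision of those genes. They also limit fits without replicate 1 of IL10 + TGF-β, where Il12b had 4 counts and Aldh1a2 9 over replicates 2 and 3.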

Other observations

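In the cultures that received LPS together with IL10 and TGF-β, the named genes did not all lie on one side. Spp1 had 18152, 17502 and 17660.0 CPM there, beside 854 ± 191 CPM in LPS alone and 21410.0 ± 4188 CPM in IL10 + TGF-β alone (SD, n = 3). Id1 had 16.8, 23.8 and 22.3 CPM, beside 3.81 ± 1.66 CPM in LPS alone and 54.7 ± 2.42 CPM in IL10 + TGF-β alone, and so fell between them. Nos2, the inducible nitric oxide synthase, had 701, 642 and 579 CPM, beside 1052 ± 188 CPM in LPS alone and 196 ± 53.1 CPM in IL10 + TGF-β alone. Oas3 had 448, 432 and 555 CPM, beside 942 ± 52.6 CPM in LPS alone and 232 ± 24.5 CPM in IL10 + TGF-β alone. These values are descriptions without a test.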
